A study of Mus musculus with 81 samples.

Results

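The comparison described here is that of bone marrow-derived macrophages (BMDMs) from H3.3cKO mice (hereafter cKO) grown with a control antibody against BMDMs of the same genotype grown with no antibody. It was made on 6 of the 81 libraries of the series, 3 in each group, chosen by the genotype and antibody given in their labels. The study deleted the genes of histone H3.3 in myeloid cells and followed interferon-stimulated genes (ISGs) and proliferation in bone marrow cultures and macrophages. In its antibody experiment, WT and cKO bone marrow cells were cultured with no antibody, with a control antibody or with an antibody against the type I interferon receptor IFNAR1, 3 libraries per arm. The cKO mice carried H3f3a fl/fl, H3f3b fl/fl and LysM cre/cre, and by the study's methods the WT mice carried both floxed genes without Cre. LysM-Cre acts in macrophages, granulocytes and their precursors, so the genes are lost during myeloid development and not in other marrow cells. Because Cre sits in the Lyz2 locus, cKO mice of this genotype have no intact copy of Lyz2. By the study's methods the control antibody was an IgG1 κ isotype control, present from the start of culture and renewed until the cells were lysed, and the medium was conditioned by L929 fibroblasts. The labels call the 3 libraries of a group biological replicates and do not name animals, so p-values measure the spread between these libraries.

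An isotype control shares the constant part of the blocking antibody but is not directed against its target, so it serves to separate binding to the target from exposure to immunoglobulin. Macrophages bind the constant part of IgG through Fcγ receptors, which signal through the Fcer1g chain and the kinase Syk or, for the inhibitory receptor Fcgr2b, through phosphatases. BMDMs grow from dividing marrow progenitors in response to CSF1 and leave the cell cycle as they mature, and histone H3.3 is made throughout the cell cycle whereas the replication-coupled histones are made while DNA is copied.

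The 6 libraries held 5295144 to 34380735 counts on genes. The control antibody group held both the deepest library (replicate 1) and the shallowest ones (5295144 counts in replicate 2 and 8985646 in replicate 3). Mitochondrially encoded genes took 0.646% to 0.966% of the counts with control antibody and 1.09% to 1.25% without antibody. On the first principal component of all 18 antibody libraries, 5 libraries stood apart (WT no antibody replicates 2 and 3, WT IFNAR1 antibody replicates 1 and 2, cKO IFNAR1 antibody replicate 1), and none of them belongs to the comparison. H3f3b, deleted as a whole, lay between 31.8 and 67.8 CPM (counts scaled to a common library size, with TMM factors) in the 6 cKO libraries and between 325 and 468 CPM in the 6 WT libraries of these arms. H3f3a, of which only a part is floxed, lay between 4.0 and 7.85 CPM in cKO and between 33.6 and 55.4 CPM in WT. Neither gene passed the test between control and no antibody in cKO (log2 fold change 0.11, SE 0.38, for H3f3a and 0.02, SE 0.32, for H3f3b). Macrophage markers were present in all 6 libraries: Csf1r, the CSF1 receptor, lay between 897 and 1371 CPM, Adgre1 (F4/80) between 780.2 and 957 CPM and Cd68 between 666 and 809 CPM.

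With control antibody, cKO BMDMs had lower levels of genes of cell division and of replication-coupled histones, while Cd24a, Lyz2, Plbd1 and Mmp14 were among the genes with higher levels. Of 17191 genes tested in a model of all 18 antibody libraries, 251 passed an adjusted p of 0.05 (1.46%), 114 of them higher with control antibody (0.663%) and 137 lower (0.797%). In each of the 251 genes the groups did not overlap, which held for 30.9% of all genes tested. The median log2 fold change was 2.34 among the higher genes and -1.52 among the lower ones. The higher genes were the less abundant, with a median log2 CPM of 1.80 against 4.01 for the lower genes.

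The number of genes that passed depended on which libraries set the spread. In a model of only the 6 libraries compared, 1693 of 14737 genes passed, 759 higher (5.15%) and 934 lower (6.34%). Of the 251 genes, 247 were tested there, and all 247 passed in the same direction. With 1 library left out of the 18-library model, 385 genes passed without control antibody replicate 1 and 153 without no antibody replicate 3. Without any of the other 4 libraries only 1 or 2 genes passed, whereas in the model of the 6 libraries 717 to 2268 genes passed with 1 of them left out. Control antibody replicate 1 was the control library nearest to the no antibody group in 216 of the 251 genes, and it is also the deepest of the 6. Counts from both models are therefore given for the gene lists below. These lists were chosen with earlier results of these data known, so the counts of their members describe the data and are no independent test.

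**Figure D1:**
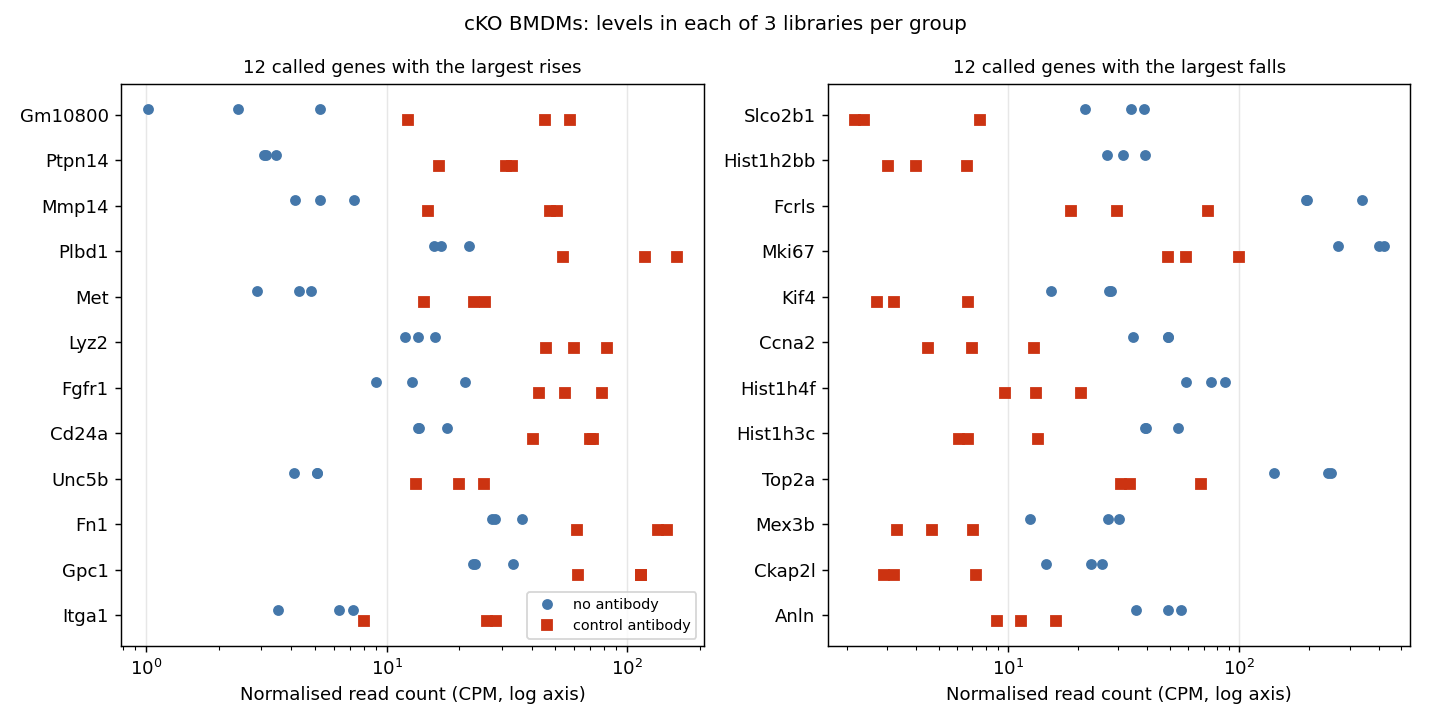
Levels of the 12 called genes with the largest rises (left) and the 12 with the largest falls (right) in cKO BMDMs, in CPM on a log axis, with circles for the 3 no antibody libraries and squares for the 3 control antibody libraries. Groups that do not overlap were a condition for choosing the 24 genes. The control antibody library nearest to the no antibody libraries is mostly replicate 1, as in Mki67 with 99.2 CPM against 49.0 and 58.8 CPM.

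Genes of mitosis were lower with control antibody as a group. All 34 mitotic genes tested had a log2 fold change below 0, with a median of -1.91 where the median of all genes was 0.01. The fall passed the test for 14 of the 34 in the 18-library model and for all 34 in the model of the 6 libraries. The median stayed between -2.28 and -1.76 with any 1 of the 6 libraries left out. Summed over the list, the no antibody libraries held 1729, 1662 and 1093 CPM and the control antibody libraries 508, 276 and 296 CPM, without overlap.

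Mki67, which coats mitotic chromosomes and is a common marker of dividing cells, lies on chromosome 7 between positions 135689784 and 135716361 of GRCm38. Its level was 422, 403 and 267 CPM without antibody and 99.2, 49.0 and 58.8 CPM with control antibody, a fall of 5.24-fold (log2 fold change -2.39, SE 0.44, adjusted p = 0.0241). Every control library was below every no antibody library, by a gap wider than the range within the control group. Top2a, the topoisomerase that untangles sister chromatids, had 249, 242 and 141 CPM without antibody and 68.1, 30.7 and 33.7 CPM with it (log2 fold change -2.24, SE 0.47, adjusted p = 0.0323). Ccna2, the cyclin of S phase and G2, fell from 49.2, 49.3 and 34.6 CPM to 12.9, 4.52 and 6.95 CPM. Among other genes with large falls were Kif4, a kinesin of the mitotic chromosomes (-2.38 on the log2 scale), Ckap2l, a spindle protein (-2.13), and Anln, an actin-binding protein of the cleavage furrow (-1.93). Of the kinetochore and checkpoint genes, Knl1 (-1.87), Nuf2 (-1.92) and Mad2l1 (-1.34) fell as well, with adjusted p-values of 0.0296, 0.0322 and 0.0296. In bulk RNA, fewer dividing cells and less of these transcripts per cell cannot be told apart.

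Promoters of mitotic genes often carry the CCAAT box, bound by NF-Y, and the CHR element, bound by the DREAM and MuvB complexes. RefSeq promoter windows of GRCm38.p6 were read for 30 of the 34 mitotic genes, over the 250 bases before the annotated start. CCAAT on either strand was found in 21 of these 30 (70.0%) and in 37.5% of 27025 genes with such a window. TTTGAA, the letters taken for the CHR, was found on either strand in 11 of the 30 (36.7%) and in 18.3% of all. Both stood in the same window in 10 of the 30 (33.3%) and in 6.45% of all. The windows of the mitotic genes with the smallest p-values, Mki67 at chr7:135716380-135716629 on the minus strand and Knl1 at chr2:119046869-119047118 on the plus strand, are shown to compare a promoter with these letters and one without. Capitals mark CCAAT or TTTGAA on either strand, with 3 and 2 matches for Mki67 and none for Knl1, although both genes fell. The windows of Mad2l1 and Nuf2, which also fell, held neither string. A match is a string of letters and not a bound site.
Mki67: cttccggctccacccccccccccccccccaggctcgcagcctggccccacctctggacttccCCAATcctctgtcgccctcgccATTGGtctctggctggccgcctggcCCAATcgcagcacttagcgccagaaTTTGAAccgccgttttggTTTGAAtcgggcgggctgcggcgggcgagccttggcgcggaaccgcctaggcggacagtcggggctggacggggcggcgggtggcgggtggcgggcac
Knl1: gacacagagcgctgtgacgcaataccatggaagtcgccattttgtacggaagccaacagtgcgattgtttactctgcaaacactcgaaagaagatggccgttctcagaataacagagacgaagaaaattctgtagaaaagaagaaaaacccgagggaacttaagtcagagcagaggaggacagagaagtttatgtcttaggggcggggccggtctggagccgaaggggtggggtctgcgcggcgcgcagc

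Genes of DNA replication were lower too, by less. All 40 tested had a log2 fold change below 0 (median -0.83, between -1.09 and -0.66 with any 1 library left out), and 6 passed in the 18-library model and 20 in the model of the 6 libraries. Pola1, the catalytic subunit of the primase-linked polymerase, had 46.8, 46.4 and 34.2 CPM without antibody and 26.2, 18.6 and 17.7 CPM with control antibody (log2 fold change -1.01, SE 0.20, adjusted p = 0.0256). Pole, the leading strand polymerase, fell by 1.61 on the log2 scale, Mcm10, an initiation factor, by 1.44 and Cdc45, a part of the replicative helicase, by 1.14. In none of these 4 genes did the groups overlap.

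Replication-coupled histone genes, a list added after their values had been seen, had a median log2 fold change of -1.58, with 51 of 52 tested below 0. Of the 52, 16 fell in the 18-library model and 40 in the model of the 6 libraries. Hist1h2bb had 31.5, 39.0 and 26.7 CPM without antibody and 6.61, 3.98 and 3.01 CPM with control antibody, a fall of 6.81-fold (adjusted p = 0.0296). Hist1h4f fell by 2.32 and Hist1h3c by 2.29 on the log2 scale, and the smallest p-value of the list belonged to Hist1h4c, with 65.8, 68.2 and 68.9 CPM against 34.3, 39.8 and 30.8 CPM (log2 fold change -0.96, adjusted p = 0.0199). These genes are near-identical copies, so the share of reads that each copy received is uncertain, and 18 of the 70 annotated did not pass the filter on low counts. The summed list fell outside the no antibody range in every control library, with 1831, 2241 and 1888 CPM without antibody and 1001, 1029 and 890.3 CPM with it. Asf1b, a chaperone of H3 and H4 made in dividing cells, fell by 1.46 on the log2 scale, and it was the 1 member of 11 H3.3 genes and chaperones that passed (median -0.07). Together the mitotic, replication and histone lists accounted for 36 of the 137 lower genes and for 126 of the 17191 genes tested. That count includes the histone list, which was added after its values had been seen.

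**Figure D2:**
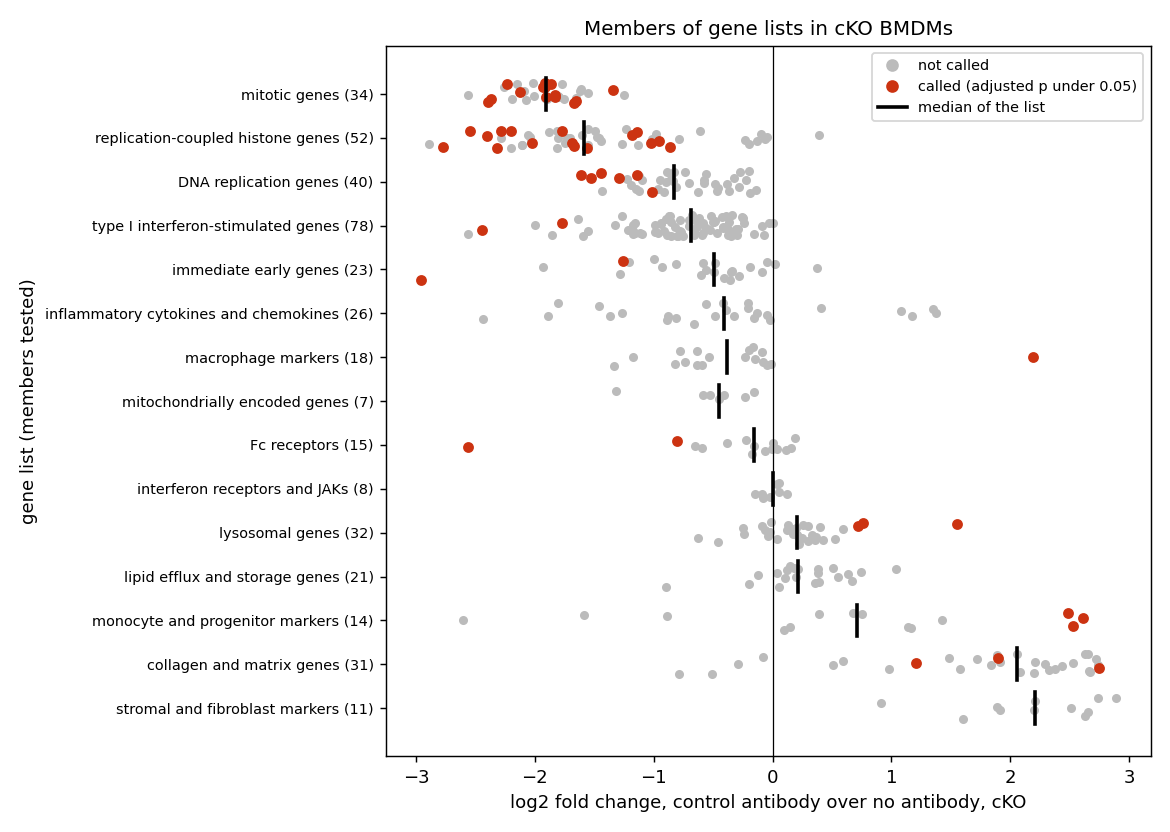
Log2 fold change of control antibody over no antibody in cKO for each tested member (point) of 15 gene lists, with called genes in red, others in grey and the median of a list as a black bar. The mitotic, histone and replication lists lie to the left of 0 with medians of -1.91, -1.58 and -0.83. The matrix and stromal lists, which share members, lie to the right with medians of 2.06 and 2.21.

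ISGs were lower with control antibody in sign but rarely beyond the spread. Of 78 ISGs tested, 77 had a log2 fold change below 0, with a median of -0.69 that stayed between -0.95 and -0.41 with any 1 library left out. Only 2 passed in the 18-library model and 9 in the model of the 6 libraries, and the groups did not overlap in 14 of the 78, a smaller share than the 30.9% of all genes. Summed over the list, the no antibody libraries held 6496, 4936 and 3311 CPM of ISG transcripts and the control antibody libraries 3782, 3645 and 2630 CPM, so that control replicates 1 and 2 were above no antibody replicate 3. Mx1, an antiviral GTPase, had 63.5, 49.0 and 19.2 CPM without antibody and 13.8, 13.6 and 11.2 CPM with control antibody (log2 fold change -1.77, SE 0.38, adjusted p = 0.0334). Cxcl10, a chemokine for T cells, had 12.3, 8.09 and 2.66 CPM without antibody and 1.28, 1.45 and 1.56 CPM with it (log2 fold change -2.45, SE 0.53, adjusted p = 0.0352). In both genes no antibody replicate 3 was the lowest of its group and still above every control library. Ifit2 and Ifit3, which bind viral RNA, overlapped between groups, with 129, 73.0 and 25.5 CPM against 23, 30.2 and 20.5 CPM for Ifit2 (adjusted p = 0.0871) and an adjusted p of 0.122 for Ifit3. With the IFNAR1 antibody the ISG sums were 3129, 1912 and 1913 CPM.

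The interferon genes themselves were barely detected: 20 of 21 did not pass the filter, with at most 4 counts in any of the 6 libraries, among them Ifnb1. The 8 interferon receptor and Janus kinase genes had a median of 0.01 on the log2 scale and none passed. Ifnar1, the target of the blocking antibody, had 165, 178 and 178 CPM without antibody and 167, 178 and 195 CPM with control antibody (log2 fold change 0.05, SE 0.12). The interferon-stimulated response element is the site of the complex that type I interferon activates. Its core, searched on either strand as GAAA and GAAA with NN between them, was found in 33 of 63 ISG promoter windows (52.4%) and in 3.46% of all. The window of Cxcl10, at chr5:92348890-92349139 on the minus strand, is shown as the called ISG with a window, and capitals mark its match.
Cxcl10: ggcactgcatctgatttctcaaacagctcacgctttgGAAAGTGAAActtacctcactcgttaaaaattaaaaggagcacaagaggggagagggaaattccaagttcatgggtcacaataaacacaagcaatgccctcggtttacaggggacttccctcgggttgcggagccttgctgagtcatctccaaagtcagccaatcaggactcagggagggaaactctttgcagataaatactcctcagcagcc

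Immediate early genes, which respond to growth factors within minutes, were lower in 21 of 23 by sign, with a median log2 fold change of -0.49. In the 18-library model 2 fell, and in the model of the 6 libraries 13 did. Fosb, an AP-1 subunit, had 425, 474 and 481 CPM without antibody and 197, 209 and 170.4 CPM with control antibody (log2 fold change -1.26, SE 0.21, adjusted p = 0.0160). Egr3, a zinc finger factor, had 13.6, 21.7 and 16.5 CPM without antibody and 2.22, 3.07 and 1.56 CPM with it (log2 fold change -2.96, SE 0.55, adjusted p = 0.0241). Both groups were tight in these genes and far apart. Klf2 (-1.28, adjusted p = 0.0642) and Ier2 (-1.0, adjusted p = 0.110) did not pass in the 18-library model. Ets2, a CSF1-responsive factor, fell by 0.98 on the log2 scale (adjusted p = 0.0452), the 1 called gene among 15 listed as targets of L929-conditioned medium (median -0.19), of which 4 were higher and 2 lower in the model of the 6 libraries.

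Of the 26 genes tested in the list of inflammatory cytokines and chemokines, which does not hold Cxcl10, none passed in the 18-library model (median log2 fold change -0.41, 21 below 0). In the model of the 6 libraries 10 were lower and 2 higher. The smallest p-values belonged to Ccl4, with 46.4, 46.1 and 46.4 CPM against 28.3, 23.7 and 23.2 CPM (adjusted p = 0.0604), Ccl12 (adjusted p = 0.0730), Ccl2 (adjusted p = 0.0814) and Il27 (adjusted p = 0.0865). For Ccl2, the chemokine that draws monocytes, the levels were 137, 167 and 128 CPM without antibody and 62.4, 47.2 and 46.8 CPM with it. Of 36 Toll-like receptor response genes (median -0.07), the acute phase gene Saa3 rose and the costimulatory ligand Cd86 fell in the 18-library model. In the model of the 6 libraries, 3 were higher and 3 lower. Saa3 went from 0.533, 0.641 and 0.561 CPM to 2.39, 13.7 and 8.61 CPM (adjusted p = 0.0183) and Cd86 from 68.8, 56.8 and 70.7 CPM to 27.5, 39.2 and 29.0 CPM (adjusted p = 0.0452).

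The genes of the Fcγ receptors, a family that binds the constant part of IgG, did not pass the test. The activating receptors Fcgr1, Fcgr3 and Fcgr4 had log2 fold changes of -0.59 (SE 0.57), 0.16 (SE 0.24) and 0.11 (SE 0.31), and the inhibitory receptor Fcgr2b one of -0.16 (SE 0.17). Fcer1g, the signalling chain of the activating receptors, had 397, 409 and 367 CPM without antibody and 322, 279.9 and 295 CPM with control antibody. Its groups did not overlap, with an adjusted p of 0.494 in the 18-library model and 0.0148 in the model of the 6 libraries. Of the 15 genes of the Fc receptor list (median -0.16), 2 fell in the 18-library model and 4 were lower in the model of the 6 libraries. Fcrls, an Fc receptor-like gene of macrophages and microglia, on chromosome 3 between 87250758 and 87263738, had 193, 339 and 196 CPM without antibody and 72.9, 29.5 and 18.7 CPM with it, a fall of 5.92-fold (log2 fold change -2.57, SE 0.42, adjusted p = 0.0155). Fcgrt, the neonatal Fc receptor that returns IgG from endosomes to the cell surface, had 34.9, 33.6 and 28.1 CPM without antibody and 21.2, 18.8 and 15.1 CPM with it (log2 fold change -0.80, SE 0.16, adjusted p = 0.0296).

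Macrophage markers other than Lyz2 were lower in sign, 17 of 18 genes, with a median of -0.38. None of the 17 passed in the 18-library model and 8 did in the model of the 6 libraries. Siglec1, the sialic acid receptor CD169 and itself an interferon-induced gene, had 467, 393 and 268 CPM without antibody and 180.0, 155 and 113 CPM with control antibody (adjusted p = 0.0528). C1qa and C1qb, chains of complement C1q, had log2 fold changes of -1.18 (adjusted p = 0.103) and -0.82 (adjusted p = 0.131). Slco2b1, an organic anion transporter of macrophages, had the largest fall among genes whose mean log2 CPM reached 3, from 38.7, 34.0 and 21.5 CPM to 7.52, 2.17 and 2.39 CPM (7.08-fold, log2 fold change -2.82, SE 0.52, adjusted p = 0.0241). Mex3b, an RNA-binding protein, fell by 2.16 on the log2 scale (adjusted p = 0.0296).

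Lyz2 itself, on chromosome 10 between 117277331 and 117282321, rose in cells whose copies are both interrupted by Cre. It had 15.8, 11.9 and 13.5 CPM without antibody and 59.8, 46.1 and 81.9 CPM with control antibody, a rise of 4.57-fold (log2 fold change 2.19, SE 0.29, adjusted p = 0.0120). In WT it had 5282 to 11375 CPM without antibody and 22954 to 23380 CPM with control antibody (log2 fold change 1.58, adjusted p = 0.00603). The neighbouring paralog Lyz1 is close in sequence, so its reads and those of Lyz2 may not be fully separated. Lyz1 had 9.55, 18.7 and 15.8 CPM against 15.7, 71.6 and 47.4 CPM, with overlap (adjusted p = 0.0642).

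The gene with the smallest p-value was Cd24a, on chromosome 10 between 43578284 and 43584265, which encodes the small glycosylated surface protein CD24 of immature blood cells. It had 13.5, 13.5 and 17.7 CPM without antibody and 40.6, 69.9 and 71.9 CPM with control antibody, a rise of 4.06-fold (log2 fold change 2.02, SE 0.21, adjusted p = 0.00107). It passed with any 1 of the 6 libraries left out. Monocyte and progenitor markers had a median log2 fold change of 0.71 over 14 genes, of which 3 rose in the 18-library model, and 5 were higher and 1 lower in the model of the 6 libraries. Plbd1, a phospholipase B-like protein of myeloid granules, had 16.7, 15.7 and 21.9 CPM without antibody and 53.8, 119 and 161 CPM with it (log2 fold change 2.61, SE 0.42, adjusted p = 0.0145). Ly6c2, a surface protein of classical monocytes, rose by 2.53 and Chil3, a chitinase-like protein, by 2.49 on the log2 scale, from at most 1.92 and 1.68 CPM. Ccr2, the receptor of Ccl2 on the same monocytes, went the other way, with 20.6, 31.6 and 11.1 CPM against 3.75, 3.43 and 3.11 CPM (adjusted p = 0.103), and it passed in the model of the 6 libraries (adjusted p = 0.00375).

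**Figure D3:**
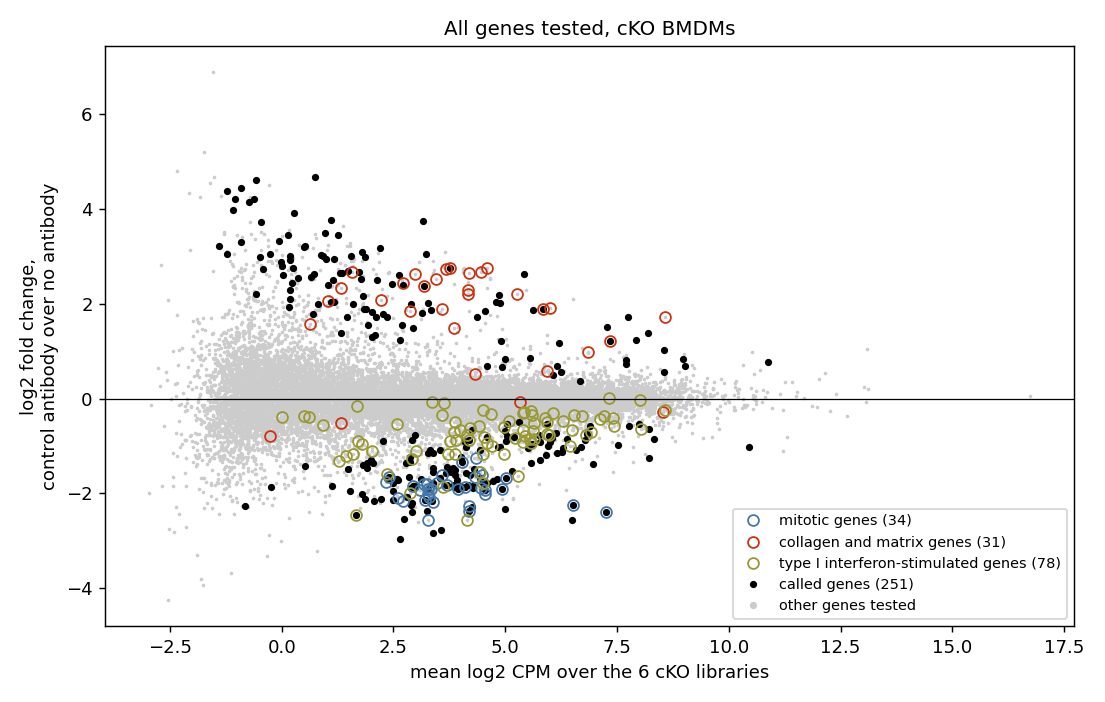
Log2 fold change of control antibody over no antibody against the mean log2 CPM of the 6 cKO libraries for the 17191 genes tested, with the 251 called genes in black and 3 gene lists ringed. Mitotic genes lie together near -1.91, matrix genes mostly above 0 with a median of 2.06, and ISGs in a band below 0 with a median of -0.69.

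Genes of collagen and extracellular matrix were higher with control antibody. Of 31 tested, 27 had a log2 fold change above 0, with a median of 2.06 (1.83 to 2.22 with any 1 library left out). The rise passed the test for 3 in the 18-library model and for 25 in the model of the 6 libraries. Mmp14, a membrane-bound collagenase, had 5.28, 7.29 and 4.14 CPM without antibody and 14.8, 50.8 and 47.5 CPM with control antibody, a rise of 6.71-fold (log2 fold change 2.75, SE 0.48, adjusted p = 0.0190). Fn1, fibronectin, had 27.3, 36.4 and 28.2 CPM without antibody and 61.9, 134 and 146 CPM with it (log2 fold change 1.89, SE 0.43, adjusted p = 0.0401). Col18a1, a collagen of basement membranes, had 94.2, 104 and 124 CPM without antibody and 204, 296 and 246 CPM with it (log2 fold change 1.20, SE 0.19, adjusted p = 0.0145). Mmp8, a collagenase of neutrophils, had an adjusted p of 0.0610.

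Markers of stromal cells and fibroblasts, a list that overlaps that of the matrix genes, were higher as well. Both lists hold Dcn and Lum, and the stromal list also names the collagen genes Col1a1, Col1a2 and Col3a1. All 11 tested of 16 had a log2 fold change above 0 (median 2.21), none passed in the 18-library model and 9 passed in the model of the 6 libraries. Their summed level was 130.2, 111 and 62.3 CPM without antibody and 309, 549 and 586 CPM with control antibody. Pdgfrb, the PDGF receptor of mesenchymal cells, had 1.76, 1.44 and 1.68 CPM without antibody and 8.22, 12.6 and 15.8 CPM with it (adjusted p = 0.0761). Acta2, smooth muscle actin, had a log2 fold change of 2.51 (adjusted p = 0.0665), Cxcl12 one of 2.63 (adjusted p = 0.149) and Sparc one of 2.74 (adjusted p = 0.151). The 5 members not tested, Lepr, Thy1, Tagln, Dcn and Lum, did not pass the filter, with at most 15 counts in any of the 6 libraries. The part of stromal cells in the higher levels of matrix genes was not tested.

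The other large rises belonged to genes of varied roles. Ptpn14, a tyrosine phosphatase of cell junctions, had 3.09, 3.44 and 3.15 CPM without antibody and 16.5, 33.2 and 31.3 CPM with control antibody, a rise of 8.30-fold (log2 fold change 3.05, SE 0.46, adjusted p = 0.0145). The receptor tyrosine kinases Met, for hepatocyte growth factor, and Fgfr1, for fibroblast growth factors, rose by 2.38 and 2.04 on the log2 scale. Gpc1, a heparan sulfate proteoglycan (1.86), Itga1, a collagen-binding integrin chain (1.86), and Unc5b, a netrin receptor (2.02), also rose. Control antibody replicate 1 was the lowest control library in all 6 of these genes. Gm10800, with 1.01, 2.40 and 5.26 CPM against 12.2, 58.0 and 45.6 CPM, had the largest rise among genes whose mean log2 CPM reached 3, but it has near-identical copies and its reads may come from several loci.

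Lysosomal genes were shifted up by a small amount, with a median log2 fold change of 0.21 over 32 genes. In the 18-library model 3 rose, all cathepsins, and in the model of the 6 libraries 12 were higher and 2 lower. Ctss, the cathepsin that processes the invariant chain, had 1458, 1403 and 1502 CPM without antibody and 2144, 2731 and 2540 CPM with control antibody (log2 fold change 0.76, SE 0.17, adjusted p = 0.0369). Ctsh rose by 0.72 and Ctsk by 1.55 on the log2 scale, and Ctsl had a log2 fold change of 0.59 (adjusted p = 0.164). Genes of lipid efflux and storage had a median of 0.22 over 21 genes, none passed in the 18-library model and 7 were higher in the model of the 6 libraries. Gpnmb, a glycoprotein of lipid-laden macrophages, had 4828, 6023 and 7603 CPM without antibody and 10256, 13096 and 14513 CPM with it (adjusted p = 0.0994).

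The remaining lists with more than 1 member tested had medians between -0.45 and 0.38. Medians were 0.04 for glycolysis and hypoxia (35 gene records), 0.08 for sterol and fatty acid synthesis (31), -0.04 for p53 targets (20) and -0.24 for integrated and oxidative stress (27), with no gene passing in the 18-library model. In the model of the 6 libraries, 4 glycolysis genes were higher and 2 lower, 4 sterol genes were higher and 1 lower, 4 p53 targets were lower, and 2 stress genes were higher and 8 lower. Alternative activation genes had a median of -0.33 over 13, where Chil3 rose and the transglutaminase Tgm2 fell by 0.85 on the log2 scale in the 18-library model, and 2 were higher and 4 lower in the other. Complement and coagulation genes had a median of -0.04 over 18, where F10, coagulation factor X, rose by 2.0 on the log2 scale as the only called member of the 18-library model, and 3 were higher and 3 lower in the other. MHC class II genes had a median of 0.21 over 9, and the 7 mitochondrially encoded genes tested one of -0.45. No gene of either list passed in the 18-library model, and 1 MHC class II gene and 3 mitochondrial genes were lower in the model of the 6 libraries. Markers of other blood cells gave medians of 0.38 for neutrophils (6 tested of 17), -0.31 for dendritic cells (11 of 15), 0.00 for B cells (4 of 13), -0.12 for T and NK cells (4 of 15) and -0.20 for endothelial and erythroid cells (6 of 16), and none passed in the 18-library model. In the model of the 6 libraries 1 neutrophil and 1 dendritic cell marker were higher, 1 of each was lower, and 1 B cell marker was higher. Of the 16 mast cell, basophil and eosinophil markers only 1 was tested, and 12 of 13 immunoglobulin genes had at most 1 count in any of the 6 libraries.

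Beside these comparisons stand the levels with the IFNAR1 antibody in cKO, which are given without a test because replicate 1 of that arm stood apart. Mki67 had 687, 383 and 259 CPM there, against 422, 403 and 267 CPM without antibody and at most 99.2 CPM with control antibody. Fcrls had 186, 377 and 298 CPM, Slco2b1 26.6, 38.3 and 31.6 CPM and Lyz2 15, 14.7 and 19.4 CPM, each near the no antibody libraries. Cd24a had 14.4, 15.6 and 15.5 CPM, and Plbd1 had 2.79, 6.21 and 10.7 CPM, which is below both other arms. These 6 genes were picked among those called, in all of which the control antibody and no antibody libraries did not overlap. In the 6 genes the control antibody libraries were also outside the range of the IFNAR1 antibody libraries. The share of such genes over all genes was not counted. In the called genes Fn1, Itga1 and F10 the IFNAR1 antibody and control antibody libraries overlapped. Fn1 had 24.5, 72.4 and 78.8 CPM with the IFNAR1 antibody against 61.9, 134 and 146 CPM with control antibody. For Mx1 the IFNAR1 antibody libraries, with 16.7, 13.4 and 16.2 CPM, overlapped with the control antibody libraries. For Cxcl10, with 9.26, 6.45 and 5.53 CPM, they were above the control antibody libraries.

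**Figure D4:**
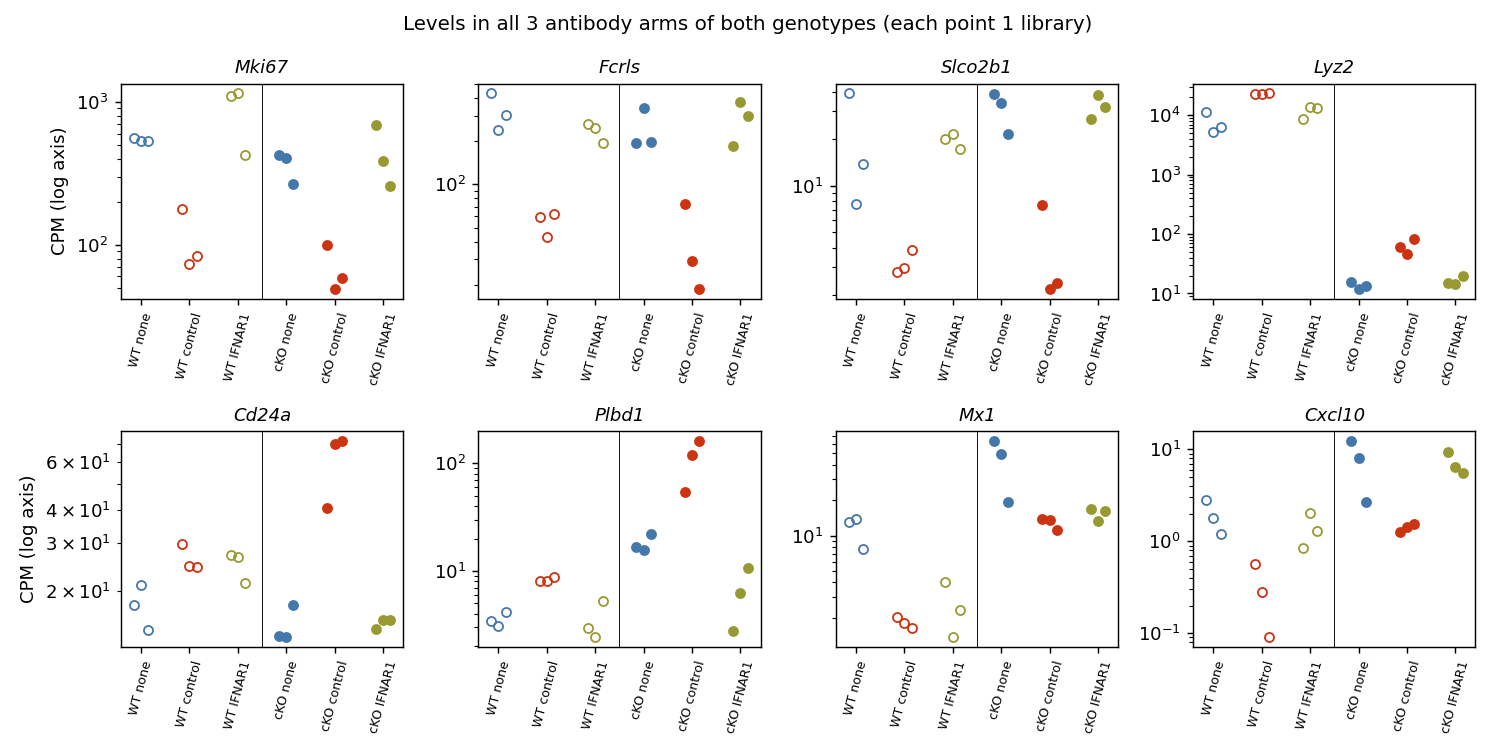
Levels of 8 genes in CPM (log axis) in the 3 antibody arms of WT (open circles) and cKO (filled circles), with 1 point per library. For Mki67, Fcrls, Slco2b1, Lyz2, Cd24a and Plbd1 the 3 cKO control antibody libraries lie apart from the cKO libraries of both other arms. For Cd24a they had 40.6 to 71.9 CPM against 13.5 to 17.7 CPM. The genes shown were picked among those called, where control antibody and no antibody libraries never overlapped. The share of such genes over all genes was not counted.

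The same comparison in WT, which shares no library with that in cKO but shares its model, called 1530 genes, 562 higher (3.27%) and 968 lower (5.63%). Its no antibody group holds replicates 2 and 3, which stood apart on the first principal component, so the WT values carry that limit. The test of the difference between genotypes uses the same libraries. Of the 251 genes called in cKO, 243 had the same sign in WT (96.8%), against 65.7% of all genes tested, and 128 (51.0%) were called in WT in the same direction. Across all genes the log2 fold changes of WT and cKO had a Pearson r of 0.49, over 17191 genes that are not independent. The mitotic list had a median of -2.0 in WT, with 33 of 34 called lower, and the median difference between genotypes was -0.01. The matrix list had a median of 0.92 in WT, with 3 called higher and 2 lower, and the replication-coupled histones one of -0.47, with 2 called lower. The stromal markers summed to 28.1 to 335 CPM in the WT control antibody libraries and 22.2 to 152 CPM in those without antibody. ISGs had a median of -0.71 in WT, close to that in cKO, with 12 called lower.

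**Figure D5:**
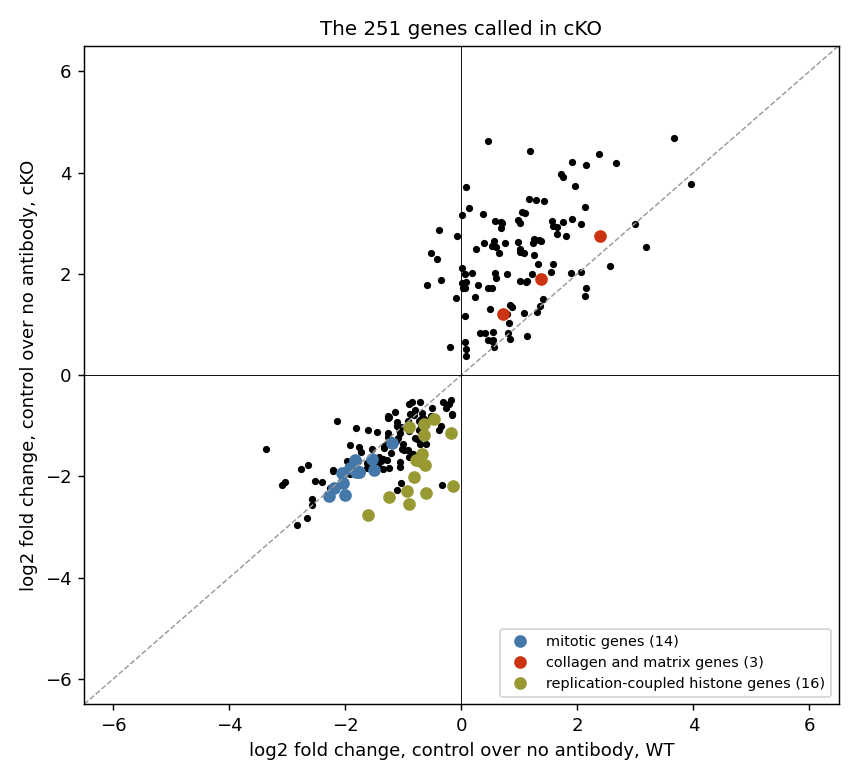
Log2 fold change of control antibody over no antibody in cKO against that in WT for the 251 genes called in cKO, with mitotic, matrix and histone genes in colour and a dashed line where both are equal. All but 8 of the 251 points lie in the quadrants of equal sign; the genes were chosen for passing in cKO, so distance from the line is no test of a difference.

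No gene passed the test of the difference between the genotypes' responses (smallest adjusted p = 0.456), where 1263 of 17191 genes had an unadjusted p under 0.05. With DESeq2 31 genes passed, and in a model without the 6 IFNAR1 antibody libraries 64 did. Zfp532, Clec10a and Cd24a were among the genes with the smallest p-values. Cd24a had a log2 fold change of 2.02 in cKO and 0.58 in WT, a difference of 1.45 (SE 0.29). Clec10a, a lectin of macrophages and dendritic cells, had 15.2, 9.37 and 9.60 CPM against 7.50, 7.41 and 8.09 CPM in cKO and 36.9, 39.2 and 41.8 CPM against 7.14, 6.63 and 8.79 CPM in WT. Hist1h4f differed by -1.71 between the genotypes (SE 0.63, adjusted p = 0.659).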

How the data were processed

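BMDM libraries were depleted of ribosomal RNA and sequenced. The authors trimmed reads with cutadapt, aligned them to mm10 with STAR and deposited raw read counts per gene (versions not given in the sources used here); the column of counts without regard to strand was used, since the library kit does not mark strand, so overlapping and antisense genes cannot be told apart. The 4 lines of unassigned reads (unmapped, multimapping, outside genes and ambiguous) were left out, of which reads outside genes alone were 24.5% to 28.9% in the 6 libraries compared. Gene names were taken from GENCODE for GRCm38, and promoter sequence from RefSeq for GRCm38.p6.

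Groups came from the labels. The 18 antibody libraries, in 6 groups, entered 1 model with 12 residual degrees of freedom, and 63 libraries were not used. Genes were filtered with filterByExpr (smallest count 10, smallest total 15), scaled by TMM and tested two-sided with edgeR 4.0.16 (quasi-likelihood test, Benjamini-Hochberg adjustment over all genes tested, threshold 0.05) in R 4.3.3 with limma 3.58.1. Printed levels are CPM on TMM-scaled library sizes, and "called" means past the threshold. Log2 CPM values use a prior count of 2, and fold changes are those of the edgeR fit. Depth was 5295144 to 34380735 counts per library, and no pair of replicates agreed within sampling noise. Named were the 12 largest rises and 12 largest falls among called genes with non-overlapping groups and a mean log2 CPM of at least 3. Also named were up to 4 members of each list with the smallest p-value, and genes set by the design. The 4 genes with the smallest p-value of the difference between genotypes were named too. The members and gene lists were chosen with earlier results of these data known. Alternatives were RLE scaling, DESeq2 1.42.0, other filters, a replicate block, the stranded column, other sets of libraries and leaving out each library. The procedure was tested on simulated data. Those had the same spread for all genes and no libraries that stood apart, so the test does not cover that feature of the real data.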

Additional observations from a re-analysis of the deposited data

Results flagged for a closer look

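Zfp532, a zinc finger gene, was named for its small p-value of the difference between genotypes. It was flagged among the named genes because its log2 fold changes had opposite signs in the genotypes, without overlap in either. The share of all genes with this pattern was not counted. In cKO it had 2.99, 2.40 and 1.82 CPM without antibody and 4.39, 4.52 and 6.43 CPM with it (log2 fold change 1.08, adjusted p = 0.110). In WT it had 5.58, 5.93 and 7.04 CPM without antibody and 2.31, 1.53 and 2.65 CPM with it (log2 fold change -1.52, adjusted p = 0.0129). The difference of 2.60 on the log2 scale had an adjusted p of 0.456 by edgeR's quasi-likelihood test. It passed with DESeq2 (adjusted p = 0.000397), with the stranded column (0.0327), without the IFNAR1 antibody libraries (0.0225) and without the libraries that stood apart (0.0335). These refits use libraries of the same experiment and are no independent test. Groups of 3 libraries were not searched for single libraries far from the rest.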

How the results depend on the processing

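The count of 251 called genes was 249 with RLE scaling, 228 with a mean of at least 1 CPM, 191 with the stranded column, 254 without mitochondrial and ribosomal protein genes in the totals and 207 with an absolute log2 fold change of at least 1. It moved to 561 without the filter on low counts (243 higher, 318 lower), 1693 in the 6 libraries alone, 449 in the 9 cKO libraries (230 higher, 219 lower) and 667 with DESeq2 (303 higher, 364 lower), which shared all 251. In models chosen after seeing the data it was 909 without the 6 IFNAR1 antibody libraries and 2484 without the 5 libraries that stood apart, where WT no antibody and WT IFNAR1 antibody keep 1 library each, assumed to vary like the others. With any 1 library left out it lay between 1 and 2268, between 1 and 385 in the 18-library model and at 922, 717, 1838, 2268, 883 and 761 in the 6 libraries (without no antibody replicates 1, 2 and 3 and control antibody replicates 1, 2 and 3). The cause was not tested.

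With a block for the replicate number, 732 genes passed (347 higher, 385 lower), and 0 for the difference between genotypes. Deviations of same-numbered libraries correlated at 0.366, 0.041 and 0.386 in cKO, so the numbers were not taken to pair the libraries. Even so, every no antibody library except cKO replicate 2 correlated best with the same-numbered control antibody library of its genotype.

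The difference between genotypes called 0 genes, 31 with DESeq2, 1 with the stranded column, 64 without the IFNAR1 antibody libraries, 36 without the libraries that stood apart and 0 with any 1 library left out.

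Cd24a kept its call in all 23 settings (adjusted p up to 0.0249) and Lyz2 in 20 of 23 (up to 0.0954). Changes of sign occurred in genes not called in the 18-library model. H3f3b was at -0.026 without the filter, -0.0014 in the 6 libraries and -0.023 without the libraries that stood apart. With 1 library left out of the 18-library model, H3f3b lay between -0.26 and 0.24, H3f3a between -0.11 and 0.38, Ifnar1 between -0.0099 and 0.10, Cd4 between -0.047 and 0.73, Cd79a between -1.01 and 0.18 and Lck between -0.70 and 0.0090. With 1 left out of the 6 libraries, the reversed values were -0.25 and -0.26 for H3f3b, -0.12 for H3f3a, -0.0061 for Ifnar1, -0.046 and -0.11 for Cd4 and -0.055 for H2-Aa. List medians of B cell, T and NK cell, MHC class II, Toll-like receptor and interferon receptor genes changed sign in 2 or 3 of the scaling and left-out-library settings. The shallowest library, with 5295144 counts, limits what can be called among genes of low level.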
